A study of Mus musculus with 12 samples.

Results

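The Schlafen genes are a family found in mammals whose mouse members lie side by side on chromosome 11. The 7 genes described here, Slfn1, Slfn2, Slfn3, Slfn4, Slfn5, Slfn8 and Slfn9, were taken by their symbols from the 23479 gene rows of each count file, and 6 of the 7 had enough reads to be tested among 10981 genes. Schlafen proteins share an N-terminal core with nucleic acid binding or cleaving activity, and the long members carry in addition a helicase-like part. The family is known for interferon-induced expression and for restraint of lymphocyte growth. In mice a mutation of Slfn2 leaves T cells unable to stay quiescent, so that they die when activated, and SLFN2 protein protects transfer RNAs from cleavage in activated T cells.

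RNA was measured by sequencing in spleen CD4+ T cells, the helper T cells of the mouse, enriched by removal of other cells to a labelled purity above 95%. The 4 groups of 3 libraries were KO 24 h, WT 24 h, KO 0 h and WT 0 h. KO cells came from mice labelled Sirt2-/-, which lack the NAD-dependent deacetylase gene Sirt2, and WT cells came from C57BL/6J mice. All groups are labelled with the strain background C57BL/6. The 24 h cells had been held for 24 h on plate-bound anti-CD3 antibody, which engages the T cell receptor complex, at 5 µg/ml without any other named stimulus, and the 0 h cells were taken to RNA directly. Ages, sexes, the extent of the deletion and the mice behind each library are not given in the labels, and p-values therefore reflect library-to-library spread that may be technical.

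Libraries held 3.63 to 10.0 megareads in genes, and 5175 to 10579 of these fell on the 7 Schlafen genes. Sirt2 itself had a CPM of 9.52 to 19.7 in KO 24 h against 62.3 to 76.3 in WT 24 h, and of 9.04 to 16.2 in KO 0 h against 67.9 to 85.4 in WT 0 h. CPM are counts scaled by library size and TMM factors. In CPM, the 7 of 8 listed CD4 T cell markers with a row summed to 2694 to 3135 in KO 24 h, 2757 to 2972 in WT 24 h, 5758 to 6545 in KO 0 h and 5576 to 6015 in WT 0 h. A gene passed at a Benjamini-Hochberg adjusted p below 0.05 in edgeR's quasi-likelihood (QL) test over all 10981 genes, and fold changes are given as log2 values, each with its standard error (SE).

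The promoters of the members that changed are shown first, with the motifs searched marked in capitals. The sequences are the 250 bases before the start of each gene from RefSeq on GRCm38.p6, 5′ to 3′ along the gene, and all 7 members matched that table by symbol. In Slfn5, Slfn8 and Slfn9 the capitals mark GAAA and GAAA parted by any 2 bases, the core of the interferon-stimulated response element, searched on both strands. In Slfn1 and Slfn2 they mark CCAGGAAGT, again on both strands, a run that holds the GGAA core bound by ETS factors and that was chosen after the promoters had been read.
Slfn1 (chr11:83116570-83116819, plus strand): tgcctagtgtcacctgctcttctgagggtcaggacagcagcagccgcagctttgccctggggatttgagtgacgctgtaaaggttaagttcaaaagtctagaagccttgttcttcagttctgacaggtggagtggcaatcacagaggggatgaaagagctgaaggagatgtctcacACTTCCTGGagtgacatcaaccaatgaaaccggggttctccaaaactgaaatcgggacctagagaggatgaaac
Slfn2 (chr11:83064862-83065111, plus strand): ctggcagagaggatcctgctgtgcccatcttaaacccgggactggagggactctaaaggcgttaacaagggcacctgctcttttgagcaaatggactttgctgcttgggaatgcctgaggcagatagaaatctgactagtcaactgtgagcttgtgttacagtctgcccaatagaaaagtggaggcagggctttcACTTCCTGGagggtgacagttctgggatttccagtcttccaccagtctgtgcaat
Slfn5 (chr11:82951852-82952101, plus strand): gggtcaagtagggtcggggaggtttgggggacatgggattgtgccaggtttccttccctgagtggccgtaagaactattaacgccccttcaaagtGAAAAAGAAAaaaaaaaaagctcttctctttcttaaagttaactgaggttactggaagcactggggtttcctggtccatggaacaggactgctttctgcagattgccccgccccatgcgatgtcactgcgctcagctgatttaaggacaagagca
Slfn8 (chr11:83020811-83021060, minus strand): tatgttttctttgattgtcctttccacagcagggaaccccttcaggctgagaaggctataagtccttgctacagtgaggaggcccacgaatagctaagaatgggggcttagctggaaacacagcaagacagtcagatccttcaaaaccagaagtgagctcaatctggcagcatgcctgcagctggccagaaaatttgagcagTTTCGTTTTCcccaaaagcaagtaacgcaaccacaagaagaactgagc
Slfn9 (chr11:82991831-82992080, minus strand): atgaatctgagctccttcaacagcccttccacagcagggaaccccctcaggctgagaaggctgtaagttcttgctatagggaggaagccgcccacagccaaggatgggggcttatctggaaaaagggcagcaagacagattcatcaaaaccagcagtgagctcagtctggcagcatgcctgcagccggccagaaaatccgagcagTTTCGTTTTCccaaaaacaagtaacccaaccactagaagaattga

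The interferon element was present in the windows of 3 of the 7 members, Slfn5, Slfn8 and Slfn9, and in 2.98% of all 32851 promoters of the same length. Slfn8 has a second listed start, whose window holds the same match. The run CCAGGAAGT was present in the windows of the other 4 members, Slfn1, Slfn2, Slfn3 and Slfn4, and in 0.700% of all promoters, and no Schlafen window held both. Because this run was picked from these same windows, its presence in 4 members cannot be weighed against that share. The run began 74 bases before the start in Slfn1, 55 bases in Slfn2, 42 bases in Slfn3 and 73 bases in Slfn4. The Slfn8 and Slfn9 windows were 80.2% identical over 262 aligned columns, while every other pair of members lay between 45.5% and 53.4%. A match of letters is a description of the window and was not tested for binding.

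Per kilobase of exon, the short genes Slfn1 and Slfn2 had the highest levels in all 4 groups. Slfn1 had 377 ± 23.3 CPM per kb in KO 24 h, 340.1 ± 20.4 CPM per kb in WT 24 h, 181 ± 13.2 CPM per kb in KO 0 h and 174 ± 21.4 CPM per kb in WT 0 h (SD, n = 3 each). Slfn2 had 211 ± 9.21 CPM per kb in KO 24 h, 218 ± 21.5 in WT 24 h, 130.3 ± 11.6 in KO 0 h and 126 ± 10.0 in WT 0 h. Below them came Slfn8, Slfn5, Slfn3, Slfn9 and Slfn4, in that order in every group. Neighbours in this order did not overlap between libraries within any group, with the exception of Slfn8 at 31.1 to 36.4 CPM per kb and Slfn5 at 23.8 to 32.5 CPM per kb in WT 0 h. Slfn9 averaged 0.754 CPM per kb in KO 24 h and 1.48 CPM per kb in KO 0 h, and Slfn4 stayed at or below 0.507 CPM per kb in every library. Lengths are the joined exons of the GENCODE M21 basic annotation, 1.66 kb for Slfn2 and 6.04 kb for Slfn5. For Slfn3 this length was 1.82 kb, while all its GENCODE transcripts hold 3409 different stretches of 50 bases. The gap between Slfn3 and Slfn9 per kb therefore depends on the length used.

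**Figure D1:**
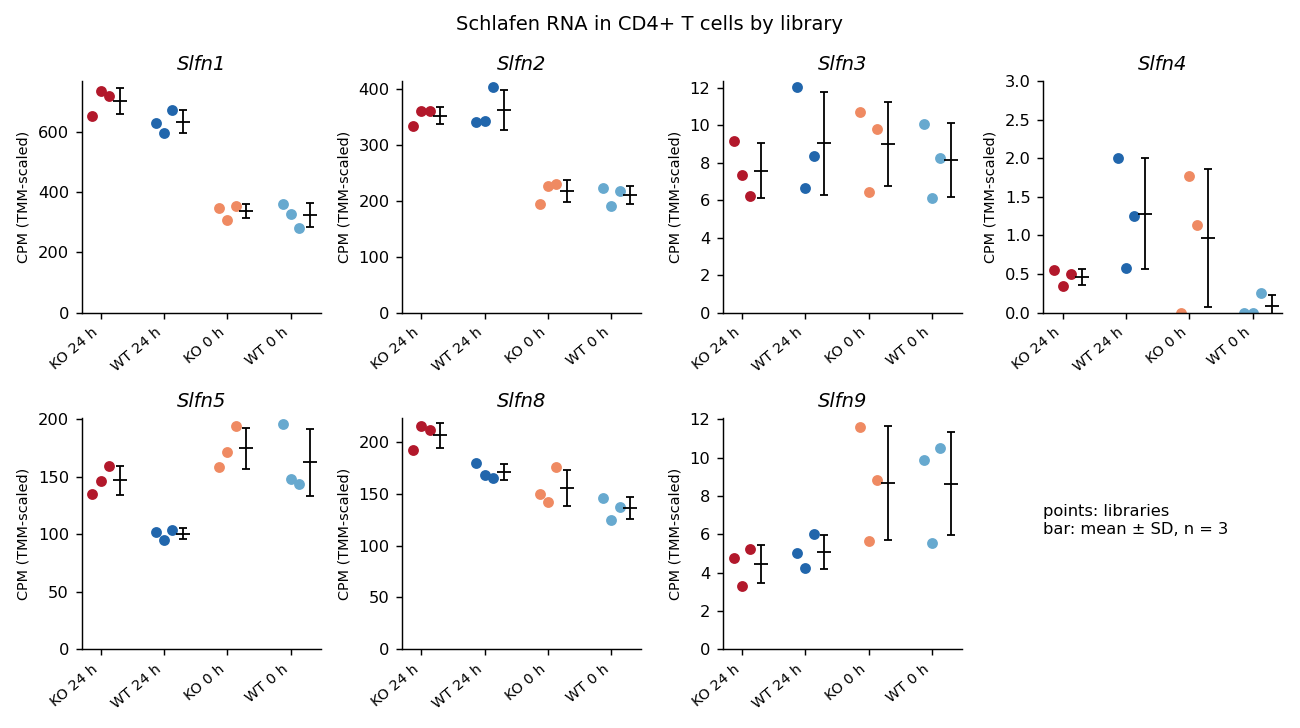
CPM of each of the 7 Schlafen genes (vertical axes, from 0) in every library of the 4 groups (horizontal axes); points are libraries and black bars are mean ± SD of 3. Slfn1 and Slfn2 separate the 24 h from the 0 h libraries, Slfn5 is lowest in WT 24 h at 95.0 to 104 CPM, and Slfn4 lies at 2.01 CPM or less.

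Most of the tested members changed between 0 h and 24 h, and in different directions. No group held 24 h cells without anti-CD3, so stimulation and 24 h of culture cannot be told apart. In KO cells 5 of 6 tested members passed between 24 h and 0 h, 3 higher (Slfn1, Slfn2 and Slfn8) and 2 lower (Slfn5 and Slfn9), where 40.4% of all tested genes passed, 19.4% higher and 21.0% lower. In WT cells 4 of 6 passed, the same 3 higher and Slfn5 lower, where 40.7% of all tested genes passed, 20.2% higher and 20.5% lower. The median log2 fold change of the 6 was 0.08 in KO and 0.23 in WT, against -0.003 and 0.003 over all tested genes. Libraries of the 2 times did not overlap for 4 of the 6 members in KO, where this held for 49.4% of all tested genes, and for 4 of the 6 in WT, where it held for 49.3%. The share of members that rose, 3 of 6, was above that of all genes in both genotypes, over 6 genes only.

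Slfn1 encodes a short Schlafen whose forced expression slows thymocyte growth in mice. In CPM, its level was 653, 736 and 719 in the KO 24 h libraries, 629.7, 598 and 674 in WT 24 h, 347, 309 and 355 in KO 0 h, and 362, 329 and 282 in WT 0 h, in replicates 1 to 3. Every 24 h library was above every 0 h library, and the genotypes overlapped at both times. The change from 0 h was 1.06 in KO (SE 0.0893, edgeR, BH-adjusted p = 1.1e-13), a 2.08-fold rise, and 0.97 in WT (SE 0.0891, edgeR, BH-adjusted p = 1.5e-12), a 1.96-fold rise. The difference between KO and WT at 24 h was 0.15 (95% interval -0.03 to 0.33) and at 0 h 0.06 (95% interval -0.12 to 0.24), and neither passed.

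Slfn2, the member tied to T cell quiescence, rose as well. In CPM, it had 334, 360.3 and 361 in the KO 24 h libraries, 341, 342 and 403 in WT 24 h, 195, 226 and 229.7 in KO 0 h, and 222, 191 and 218 in WT 0 h. The 24 h and 0 h libraries were apart in both genotypes, and the KO and WT libraries of a time were not. The rise was 0.70 in KO (SE 0.0890, edgeR, BH-adjusted p = 1.01e-08) and 0.78 in WT (SE 0.0885, edgeR, BH-adjusted p = 4.4e-10). Between genotypes the difference was -0.04 at 24 h (95% interval -0.22 to 0.13) and 0.04 at 0 h (95% interval -0.14 to 0.22), without passing. Leaving out each library in turn kept the rise of Slfn1 and Slfn2 past the threshold in both genotypes.

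Slfn8 encodes a long Schlafen that reduces T cell proliferation when overexpressed in mice. In CPM, it had 192, 215 and 211 in the KO 24 h libraries, 179.8, 168 and 165 in WT 24 h, 149.6, 142 and 175 in KO 0 h, and 146, 125 and 137 in WT 0 h. Every 24 h library was above every 0 h library of its genotype. The rise at 24 h was 0.41 in KO (SE 0.0920, edgeR, BH-adjusted p = 0.00034) and 0.33 in WT (SE 0.0919, edgeR, BH-adjusted p = 0.0031). At 24 h all 3 KO libraries lay above all 3 WT libraries, yet the difference of 0.27 (SE 0.0916, 95% interval 0.09 to 0.46) did not pass after adjustment over all genes (edgeR, BH-adjusted p = 0.36). At 0 h the difference was 0.20 (95% interval 0.01 to 0.38), the libraries overlapped, and it did not pass (edgeR, BH-adjusted p = 0.605).

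Slfn5 was the member that differed between genotypes. Human SLFN5 is an interferon-induced nuclear protein that restrains transcription of interferon-stimulated genes. In CPM, the mouse gene had 135, 146 and 159.7 in the KO 24 h libraries against 102, 95.0 and 104 in WT 24 h, and 159, 172 and 194 in KO 0 h against 196, 148 and 144 in WT 0 h. At 24 h every KO library was above every WT library, whereas at 0 h the genotypes overlapped. The difference at 24 h was 0.55 (SE 0.105, 95% interval 0.34 to 0.76, edgeR, BH-adjusted p = 0.0037), a 1.46-fold higher level in KO, and it ranked 13 by p among 10981 genes. Slfn5 was thus 1 of 6 tested members that passed at 24 h, where 0.273% of all tested genes passed and 0.182% passed higher in KO. Together with Slfn8 it made 2 of 6 members whose libraries did not overlap, against 12.9% of all tested genes, and both lay higher in KO, against 5.74%. With DESeq2 the difference was 0.55 with an adjusted p of 0.0022.

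The Slfn5 call at 24 h was lost in some of the refits that left out 1 library. Without KO 24 h replicate 3 the difference was 0.48 (edgeR, BH-adjusted p = 0.089), and without WT 24 h replicate 2 it was 0.50 (edgeR, BH-adjusted p = 0.088), while over all 18 alternatives the adjusted p ran from 2.4e-05 to 0.089. Within a library, where scaling cancels, the reads of Slfn8 over those of Slfn5 were 1.32, 1.43 and 1.47, from lowest to highest, in KO 24 h and 1.59, 1.76 and 1.77 in WT 24 h. Gene reads were 3.63 to 5.33 megareads in KO 24 h libraries against 4.68 to 8.02 megareads in WT 24 h libraries, and the part of depth was not tested. Part of Slfn5 is read on the opposite strand by the long noncoding gene Slfn5os, which overlaps 559 bases or 9.26% of the Slfn5 exon bases, and whose row, under its older symbol 1700003F17Rik, held 0 or 1 reads in each library.

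**Figure D2:**
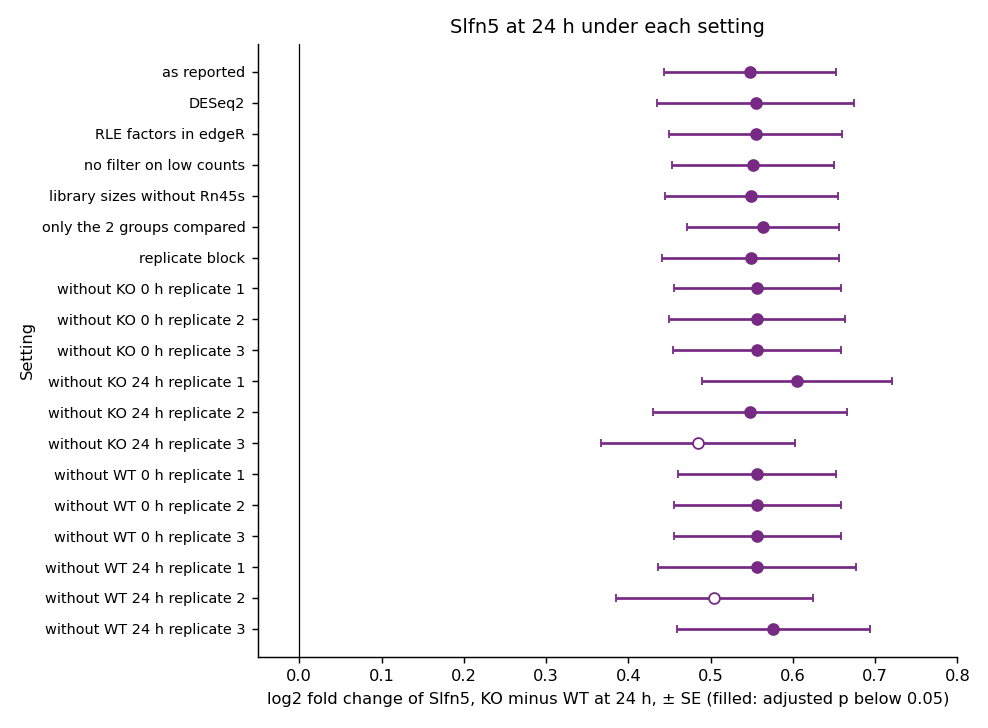
The log2 fold change of Slfn5 in KO over WT at 24 h (horizontal axis) as reported and under each alternative setting or left-out library (vertical axis), with SE bars; filled points passed. The values lie between 0.48 and 0.60, and the open points, without KO 24 h replicate 3 and without WT 24 h replicate 2, missed the threshold.

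Over time Slfn5 fell in WT by 0.69 on the log2 scale (SE 0.103, edgeR, BH-adjusted p = 2.96e-07), and all WT 24 h libraries were below all WT 0 h libraries. In KO the change was -0.25 (SE 0.102, edgeR, BH-adjusted p = 0.045), the libraries of the 2 times overlapped, and 13 of 18 alternatives no longer passed. Those included DESeq2 (adjusted p = 0.087), and without KO 0 h replicate 3 the change was -0.15 (edgeR, BH-adjusted p = 0.32). The interaction, which tests whether the change over time differed by genotype, was 0.44 (SE 0.145, 95% interval 0.15 to 0.74). Its unadjusted p was 0.0039 and it did not pass over all genes (edgeR, BH-adjusted p = 0.81). The comparison of genotypes at 24 h and the comparison of times in WT share the WT 24 h libraries, so the fall in WT and the higher level in KO are not separate observations.

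**Figure D3:**
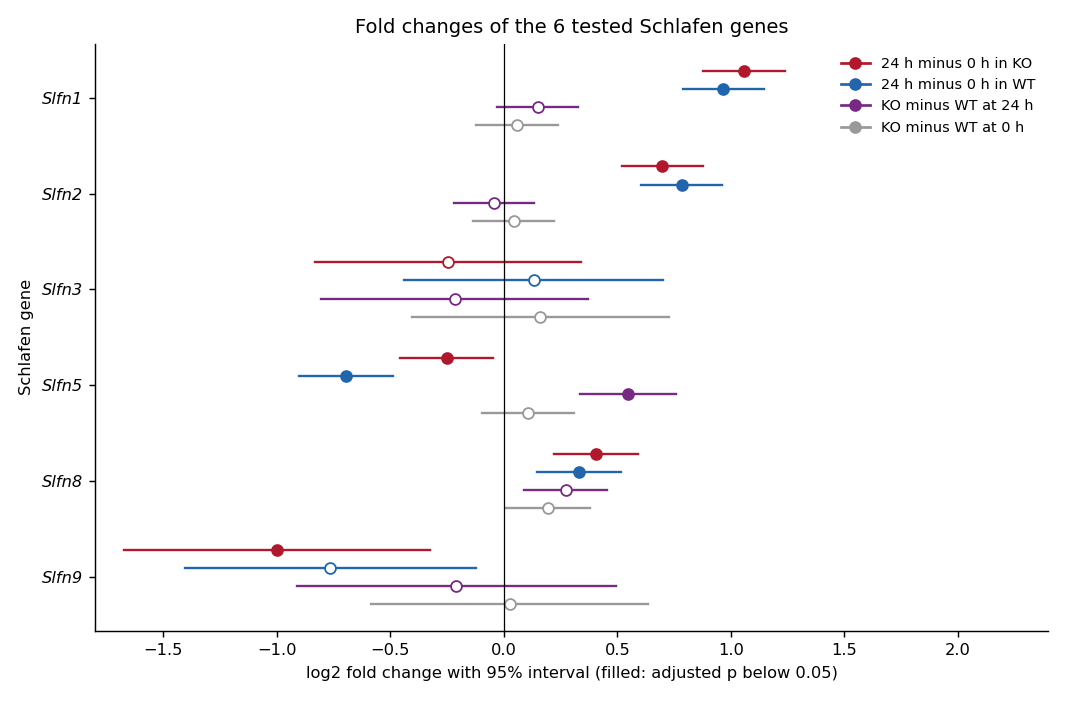
Log2 fold changes with 95% intervals (horizontal axis) of the 6 tested Schlafen genes (vertical axis) for 24 h over 0 h in KO and WT and for KO over WT at 24 h and 0 h; filled points passed. Slfn1, Slfn2 and Slfn8 lie right of 0 over time, Slfn5 and Slfn9 left of it, and Slfn5 at 0.55 is the only filled point between genotypes.

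At 0 h no genotype difference passed within the family, by edgeR's test 0 of 6 members and by DESeq2 0 of 6, where 0.346% of all tested genes passed. At an unadjusted p below 0.05 there was 1 of 6 members, Slfn8, against 878 of all 10981 tested genes. No member had libraries apart between KO 0 h and WT 0 h, against 12.4% of all tested genes. The interaction passed for 0 of 6 members by both tools, where 0.00911% of all tested genes passed. At an unadjusted p below 0.05 there was 1 of 6, Slfn5, against 575 of all 10981.

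Slfn9, a long member next to Slfn8, was low. In CPM, it had 4.76, 3.32 and 5.23 in the KO 24 h libraries, 5.02, 4.25 and 6.00 in WT 24 h, 11.6, 5.65 and 8.85 in KO 0 h, and 9.87, 5.54 and 10.5 in WT 0 h. Every KO 24 h library was below every KO 0 h library, and in WT the times overlapped. The change in KO was -0.9999 (SE 0.334, edgeR, BH-adjusted p = 0.014), and it missed the threshold without KO 0 h replicate 1 (edgeR, BH-adjusted p = 0.16) or KO 24 h replicate 2 (edgeR, BH-adjusted p = 0.088). In WT the change was -0.76 (SE 0.318, edgeR, BH-adjusted p = 0.05001), just outside the threshold, and between genotypes no difference passed. The ratio of Slfn8 to Slfn9 reads in a library was 40.4 to 64.9 in KO 24 h and 27.6 to 39.5 in WT 24 h, against 12.9 to 25.2 in KO 0 h and 13.05 to 22.5 in WT 0 h, without overlap between the times in either genotype.

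Slfn3, described in rodents in regulatory T cells and in gut epithelium, showed no change that passed. In CPM, it had 9.15, 7.34 and 6.22 in KO 24 h, 12.1, 6.66 and 8.37 in WT 24 h, 10.7, 6.46 and 9.79 in KO 0 h, and 10.0, 6.10 and 8.26 in WT 0 h. All 4 groups overlapped. With 25 to 100 reads a library its intervals were wide, at -0.81 to 0.37 for KO over WT at 24 h and -0.41 to 0.73 at 0 h.

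Slfn4, a member known from myeloid cells in mice, was not tested because its reads fell below the filter on low counts. It had 3, 2 and 2 reads in the KO 24 h libraries, 10, 5 and 9 reads in WT 24 h, 0, 11 and 6 reads in KO 0 h, and 0, 0 and 2 reads in WT 0 h. Every KO 24 h library was below every WT 24 h library, and every WT 24 h library was above every WT 0 h library. Scaled by library size, reads over the group were 12.1 times higher in WT 24 h than in WT 0 h, with a 95% exact counting interval of 3.00 to 105. In KO 24 h they were 0.400 of the level in WT 24 h (0.146 to 0.957). They were 8.56 times higher in KO 0 h than in WT 0 h (2.03 to 76.4), where 1 KO library had no read. Over time in KO they did not rise, at 0.564 of the KO 0 h level in KO 24 h (0.198 to 1.43). These intervals cover counting error only, and 3 reads over a group correspond to 0.143 CPM in WT 0 h. Without the filter on low counts, the change over time passed for Slfn4 in WT (edgeR, BH-adjusted p = 0.026). It did not in KO (log2 -0.95, edgeR, BH-adjusted p = 0.60). The difference between genotypes did not pass at 24 h (edgeR, BH-adjusted p = 0.94) or 0 h (edgeR, BH-adjusted p = 0.57). Slfn4 entered several refits that left out 1 library. There the WT change passed without WT 0 h replicate 3 (edgeR, BH-adjusted p = 0.016). It missed the threshold without WT 0 h replicate 1 (edgeR, BH-adjusted p = 0.064). Without WT 0 h replicate 2 it missed as well (edgeR, BH-adjusted p = 0.071). Markers of myeloid cells were read in the same libraries. In CPM, the 9 monocyte and macrophage markers with a row summed to 9.95 to 21.1 in KO 24 h and 13.5 to 21.01 in WT 24 h. At 0 h they summed to 41.8 to 51.8 in KO and 37.4 to 45.2 in WT. Of the 6 tested, 4 passed as lower over time in KO and 3 in WT, against 21.0% and 20.5% of all tested genes. Lyz2 was higher at 24 h (log2 1.00 in KO and 1.67 in WT) and Cd68 changed little (log2 -0.24 and 0.12), without passing. In CPM, the 7 neutrophil markers with a row summed to 1.74 to 6.81 in KO 24 h, 5.16 to 12.4 in WT 24 h, 10.2 to 17.6 in KO 0 h and 9.64 to 21.5 in WT 0 h, with Camp at 0 in all 4 groups and S100a9 and Ngp also at 0 in KO 24 h and WT 0 h. The part of myeloid cells in the Slfn4 reads was not tested.

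**Figure D4:**
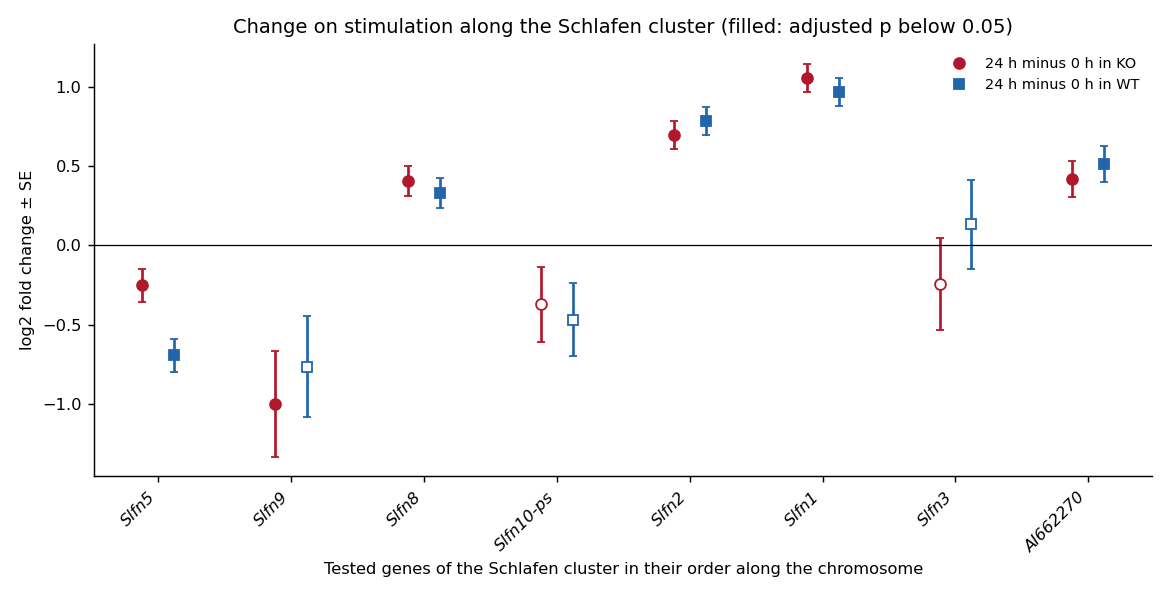
Log2 fold change of 24 h over 0 h in KO (circles) and WT (squares) with SE bars (vertical axis) for the tested genes of the Schlafen cluster in their order along chromosome 11 (horizontal axis); filled points passed. Slfn5 and Slfn9 lie below 0 and Slfn8, Slfn2 and Slfn1 above it in both genotypes, with Slfn1 highest of the members at 1.06 in KO and 0.97 in WT.

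Reads aligned to several places stand in an entry of their own in the count files and in no gene, so members with near-identical stretches are uncertain. Of all windows of 50 bases in its GENCODE transcripts, Slfn8 shared 14.6% with another Schlafen transcript, mostly of Slfn9 and the pseudogene Slfn10-ps, and Slfn9 shared 11.2%. The share was 8.15% for Slfn4, 7.39% for Slfn3, 4.27% for Slfn2 and 0.606% for Slfn1, and Slfn5 shared none with the family. With transcripts of any other gene counted as well, the share was 11.1% for Slfn5, 16.0% for Slfn3, 11.3% for Slfn4 and 11.9% for Slfn9. It stayed the same for Slfn1, Slfn2 and Slfn8. The read length behind the counts is not given in the sources used here. Of the other rows with a Slfn symbol, Slfn10-ps had CPM values of 8.05 to 14.0 in KO 24 h, 11.02 to 11.7 in WT 24 h, 10.7 to 17.8 in KO 0 h and 12.9 to 18.4 in WT 0 h, and passed in no comparison. Slfn14 had no read in any library. Slfnl1, a relative on another chromosome, had 0 to 8 reads a library.

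**Figure D5:**
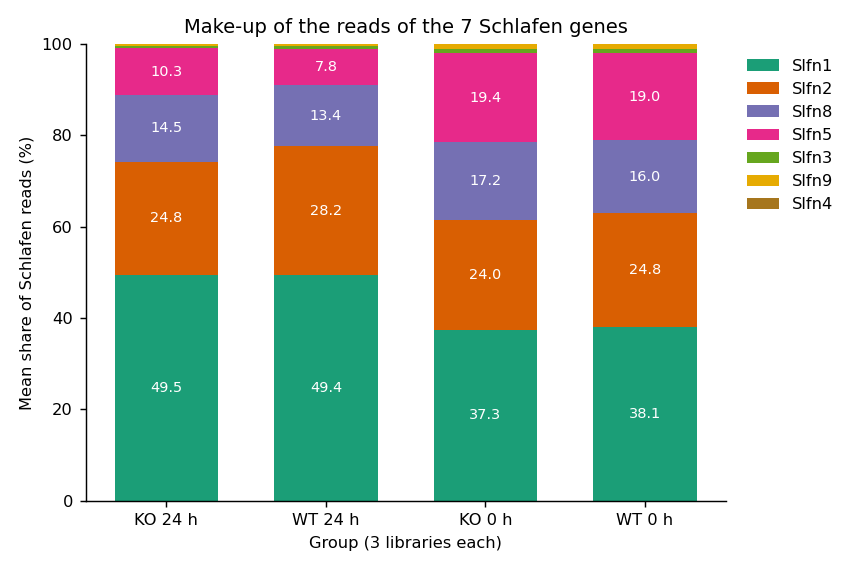
Mean share of each gene in the reads of the 7 Schlafen genes (vertical axis, percent) in the 4 groups of 3 libraries (horizontal axis), stacked to 100. Slfn1 makes up 49.5% in KO 24 h and 49.4% in WT 24 h against 37.3% in KO 0 h and 38.1% in WT 0 h, and Slfn5 10.3% and 7.83% at 24 h against 19.4% and 19.045% at 0 h.

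The make-up of the family reads shifted between 0 h and 24 h. Slfn1 took 49.5% ± 0.533 of the reads in KO 24 h and 49.4% ± 0.155 in WT 24 h, against 37.3% ± 2.15 in KO 0 h and 38.1% ± 2.81 in WT 0 h (SD, n = 3 each). Slfn5 took 10.3% ± 0.514 in KO 24 h and 7.83% ± 0.190 in WT 24 h, against 19.4% ± 1.00 in KO 0 h and 19.045% ± 1.51 in WT 0 h. The shares of Slfn5 did not overlap between KO 24 h, at 9.96% to 10.9%, and WT 24 h, at 7.65% to 8.03%. Slfn2 took 24.8% ± 0.312 in KO 24 h and 28.2% ± 1.40 in WT 24 h, against 24.0% ± 1.98 in KO 0 h and 24.8% ± 2.09 in WT 0 h. In CPM, the 7 genes together summed to 1329, 1469 and 1462 in KO 24 h, 1271, 1215 and 1362 in WT 24 h, 873, 864 and 974 in KO 0 h, and 946, 805 and 800.4 in WT 0 h.

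Other genes of the settings in which Schlafens are studied were counted for comparison, in lists chosen with earlier results of these data known. Of 37 tested interferon-stimulated genes 22 rose and 5 fell over time in KO, with a median of 0.62, and 19 rose and 6 fell in WT, with a median of 0.61. Over all tested genes 19.4% rose and 21.0% fell in KO, and 20.2% rose and 20.5% fell in WT. In KO the largest changes were in the antiviral genes Oasl2 (log2 3.52, SE 0.291, edgeR, BH-adjusted p = 9.9e-06) and Ifit3 (log2 3.24), in the interferon signalling gene Stat2 (log2 2.61) and in Oasl1 (log2 -2.01). In WT they were in Oasl2 (log2 3.08, SE 0.282, edgeR, BH-adjusted p = 1.95e-05), Ifit3 (log2 2.91), Stat2 (log2 2.07) and Parp14 (log2 1.89). Between genotypes 1 of the 37 passed at 24 h, Ifi27l2a, which was higher in KO by 0.67 (SE 0.106, edgeR, BH-adjusted p = 0.00012), and 36 did not, where 0.273% of all tested genes passed, with 10 of the 37 at an unadjusted p below 0.05 against 775 of all 10981 and a list median of 0.20 against -0.01 over all tested genes. At 0 h 0 of 37 passed by edgeR's test and 0 by DESeq2, with 6 at an unadjusted p below 0.05 against 878 of all 10981 and a median of 0.13.

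Of 10 tested genes of the type I interferon receptor and its signalling, some of which, such as Stat2, Irf9 and Usp18, are also on the list before, 5 rose and 3 fell over time in each genotype. Socs1, a feedback inhibitor of cytokine signalling, rose by 2.99 in KO (SE 0.126, edgeR, BH-adjusted p = 1.5e-19) and by 2.81 in WT (SE 0.125, edgeR, BH-adjusted p = 7.2e-19). The phosphatase gene Ptpn6 fell by 0.99 in KO, and Usp18, a brake on interferon signalling, rose by 1.07 in WT. In this list 8 of 10 passed over time, against 40.4% of all tested genes in KO and 40.7% in WT. Between genotypes 0 of 10 passed at either time by edgeR's test or DESeq2, with 2 at an unadjusted p below 0.05 at each time and medians of 0.11 at 24 h and -0.04 at 0 h.

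Of 26 tested regulators of T cell quiescence 16 fell and 5 rose over time in each genotype, with medians of -0.42 in KO and -0.52 in WT, where 21.0% of all tested genes fell and 19.4% rose in KO, and 20.5% fell and 20.2% rose in WT. In KO Klf4 fell by 3.27 (SE 0.265, edgeR, BH-adjusted p = 3.1e-14), Foxo1 fell by 1.32 and Il7r fell by 1.11, while Bach2 rose by 1.22. In WT Klf4 fell by 3.29 (SE 0.254, edgeR, BH-adjusted p = 5.8e-15), Nfatc2 fell by 1.34 and Foxo1 fell by 1.21, while Bach2 rose by 1.37. Slfn2, which is not on this list, rose in both genotypes. Between genotypes 2 of 26 were higher in KO at 24 h, among them Txnip (log2 1.02, SE 0.0941, edgeR, BH-adjusted p = 2.58e-10), and 1 at 0 h, Txnip (log2 1.04), where 0.273% and 0.346% of all tested genes passed at these times. Of 13 tested genes of transfer RNA cleavage and its control, 4 rose and 1 fell over time in each genotype, a share near the 40.4% in KO and 40.7% in WT of all tested genes that passed, so the count sets the list apart in neither genotype. The transfer RNA exporter gene Xpot rose by 2.02 in KO and 1.97 in WT. Rnh1, whose product inhibits ribonucleases such as angiogenin, fell by 0.44 in KO and fell by 0.42 in WT. Between genotypes 0 of 13 passed at 24 h or 0 h by edgeR's test or DESeq2, with 1 at an unadjusted p below 0.05 at 24 h and 0 at 0 h.

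The genes most like each member in their 4 group means were found by the mean absolute difference of centred log2 CPM over the 4 groups among 9041 genes. Closest to Slfn1 were Snx9 (0.01), Trim12c (0.03) and Gabarapl1 (0.03), and closest to Slfn2 were Nol9 (0.01), Fam210a (0.01) and Mcl1 (0.02). Slfn5 was closest to Tlr12 (0.01), Plekhm3 (0.03) and Sfxn2 (0.03). Slfn8 was closest to Zfp607, Nae1 and N4bp2l1, Slfn9 to Hist1h3e, Pitpnm2 and Tmx4, and Slfn3 to Tmem60, Rbm18 and Mavs. Among the members the nearest to Slfn1 was Slfn2, at rank 318 and 0.14, and the nearest to Slfn5 was Slfn9, at rank 3535 and 0.27.

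Summed marker levels of monocytes and macrophages, B cells and CD8 T cells were lower at 24 h than at 0 h in both genotypes. Those of NK cells were higher, and those of dendritic cells overlapped between the times. Those of neutrophils were lower in KO and overlapped in WT. In CPM, the 9 monocyte and macrophage markers with a row summed to 9.95 to 21.1 in KO 24 h and 13.5 to 21.01 in WT 24 h, against 41.8 to 51.8 in KO 0 h and 37.4 to 45.2 in WT 0 h, with Cd14 at 0 in KO 24 h, KO 0 h and WT 0 h and Lyz1 also at 0 in both 0 h groups. Among them Lyz2 and Cd68 did not pass over time in either genotype, and Lyz2 was higher at 24 h. In CPM, the 7 B cell markers summed to 2.93 to 7.22 in KO 24 h and 4.48 to 7.03 in WT 24 h, against 16.8 to 28.6 in KO 0 h and 20.96 to 30.8 in WT 0 h, with Ms4a1 and Pax5 at 0 in KO 24 h. Their part in the falls of Slfn5 and Slfn9 was not tested, and in bulk RNA fewer cells of a type and less RNA per cell cannot be told apart. Between genotypes at 24 h 0 of 23 tested markers passed by edgeR's test or DESeq2, with 3 at an unadjusted p below 0.05. In CPM, the 4 NK cell markers, one of which (Eomes) T cells also express, summed to 57.2 to 65.5 in KO 24 h and 44.8 to 62.6 in WT 24 h, against 42.5 to 52.7 in KO 0 h and 36.0 to 44.2 in WT 0 h, with Klre1 at 0 in KO 24 h. The 2 tested NK cell markers went opposite ways over time, and both passed in each genotype. Eomes rose (log2 1.35 in KO and 1.14 in WT), and Klrb1c fell (log2 -5.01 in KO and -4.60 in WT). In CPM, the 2 CD8 T cell markers summed to 8.79 to 14.7 in KO 24 h and 8.09 to 11.02 in WT 24 h, against 30.8 to 35.8 in KO 0 h and 17.3 to 18.5 in WT 0 h. The 6 dendritic cell markers summed to CPM values of 4.48 to 6.22 in KO 24 h and 1.26 to 7.03 in WT 24 h, against 3.32 to 4.90 in KO 0 h and 2.25 to 3.64 in WT 0 h, with Clec9a at 0 in all 4 groups. The 6 erythroid markers were at 0 in all libraries but 1 of WT 0 h, at 0.173 CPM. The ribosomal RNA precursor Rn45s took 7.95% to 8.16% of gene reads in KO 24 h against 8.72% to 9.55% in WT 24 h, and without it in the library sizes Slfn5 differed by 0.55 at 24 h. At 0 h 2 of 23 markers passed, Cd8b1 higher in KO (log2 0.85, edgeR, BH-adjusted p = 0.018) and Cd22 lower (log2 -2.49, edgeR, BH-adjusted p = 0.012). Over all tested genes 0.346% passed at 0 h.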

How the data were processed

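The deposited values are read counts per gene symbol, 1 file per library, made by the authors; per the submitters' processing notes STAR 2.6.0c, DESeq and the build hg19 were used. That build is human while the symbols are of mouse genes, so positions are given for the RefSeq promoters alone, on their own build. Neither counter nor annotation nor strand setting is named in the sources used here. Per the labels' protocols total RNA libraries were made from 100 ng of RNA with probe-based removal of ribosomal RNA. The 5 closing entries that name no gene were left out; of all reads listed they held 22.8% to 35.4% as no feature, 0.412% to 0.576% as ambiguous and 25.7% to 30.9% as aligned to several places.

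Groups and replicate numbers came from the sample titles. Genes were kept by filterByExpr (minimum count 10, minimum total 15), scaled with TMM and fitted with edgeR 4.0.16 in R 4.3.3 (glmQLFit, robust) on all 12 libraries as 4 groups without covariates, with Benjamini-Hochberg adjustment over all 10981 genes. SE is the log2 fold change divided by the square root of F, and 95% intervals use the total degrees of freedom of the QL test, residual plus prior. The fit was checked on simulated counts. Replicate pairs gave a chi-square of 3.15 to 14.7 per gene, above sampling noise. Alternatives were DESeq2 1.42.0, RLE factors, no filter, library sizes without Rn45s, fits of only the 2 groups compared, the replicate number as a block, and leaving out each library.

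The members, lists, markers and tests were chosen with earlier results of these data known. All 7 members are named; of each list up to 4 passing genes with the largest changes; of neighbours 5 on each side of the cluster; and per member the 3 genes most like it with a group mean of at least 5 CPM and no predicted genes. A few genes that meet these rules are left out of the text. Depth limits precision for Slfn3, Slfn4 and Slfn9.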

Additional observations from a re-analysis of the deposited data

How the results depend on the processing

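Of the 18 alternatives (17 for the interaction), none moved the count of passing members at 0 h or for the interaction from 0. When each library was left out in turn, the count of members that passed ran from 0 to 1 for KO over WT at 24 h, where it was 1, from 3 to 5 for 24 h over 0 h in KO, where it was 5, and from 4 to 6 in WT, where it was 4; Slfn4, not tested in the report, entered several of these refits. The lowest values came without KO 24 h replicate 3 or WT 24 h replicate 2 for the genotypes at 24 h and without KO 24 h replicate 2 for KO over time. Over all genes 14 to 36 passed at 24 h in these refits against 30, and 17 to 42 at 0 h against 38. Over time 3697 to 4565 of all genes passed in KO against 4435, and 3863 to 4628 in WT against 4470. Without the filter 59 genes passed at 0 h, and 24 in the fit of the 2 groups alone.

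Signs turned only for changes that did not pass, when 1 library was left out. At 0 h the log2 range was -0.0339 to 0.138 for Slfn1, -0.0279 to 0.110 for Slfn2, -0.0148 to 0.345 for Slfn3 and -0.268 to 0.253 for Slfn9. At 24 h it was -0.0867 to 0.0413 for Slfn2 and -0.41 to 0.0229 for Slfn3. It was -0.11 to 0.32 for Slfn3 over time in WT and -0.45 to 0.0689 for Slfn9 in the interaction. The cause was not tested.

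The replicate numbers of the titles were not used as pairs in the main fit. Deviations of same-numbered libraries from their group means correlated at -0.0884 to 0.0934. The same number was the best match for some replicates and not for others. With 3 libraries a group these correlations cannot decide whether the samples are paired. With the replicate block 1 member passed at 24 h (Slfn5, log2 0.55), 0 at 0 h, 4 over time in KO, 5 in WT and 0 in the interaction. In the main fit 0.273% of all tested genes passed at 24 h, 40.4% over time in KO and 40.7% in WT. Slfn9 over time in WT passed with the block (log2 -0.72, edgeR, BH-adjusted p = 0.048). Depth limits Slfn3, Slfn4 and Slfn9.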

Other observations

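Along the chromosome the members did not all move in the same direction. In RefSeq order Slfn5, Slfn9, Slfn8, Slfn10-ps, Slfn2, Slfn1, Slfn4 and Slfn3 follow each other. The members that rose over time, Slfn8, Slfn2 and Slfn1, lie side by side but for the pseudogene Slfn10-ps. Before them stand Slfn5, which fell in both genotypes, and Slfn9, whose fall passed in KO only. After them stand Slfn4, which was not tested, and Slfn3, which did not pass. Of 10 neighbours with a row, 5 on each side, 7 were tested. Over time 2 of these 7 rose in KO, Rffl (log2 0.70) and the ribosome assembly gene Nle1 (log2 0.55), and 2 rose in WT, among them Nle1 (log2 0.86), by edgeR's QL test, where 19.4% of all tested genes rose in KO and 20.2% in WT. Between genotypes 0 of 7 passed at either time by edgeR's test or DESeq2, with 0 at an unadjusted p below 0.05 at 24 h and 1 at 0 h. The long noncoding gene AI662270, inside the cluster beside Slfn3 and named after its values were seen, averaged, in CPM, 81.0 in KO 24 h, 89.1 in WT 24 h, 60.0 in KO 0 h and 62.2 in WT 0 h. It rose over time by 0.42 in KO (SE 0.116, edgeR, BH-adjusted p = 0.0031) and by 0.51 in WT (SE 0.114, edgeR, BH-adjusted p = 0.00026).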
